A study of Mus musculus with 36 samples.

Results

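The respiratory chain is the series of enzyme complexes in the inner mitochondrial membrane that passes electrons from NADH and succinate to oxygen. The members described here are the nuclear, protein-coding mouse genes for its subunits, with the complex I assembly factors that share their naming. They were chosen by symbol alone: those starting with Nduf or Uqcr, the 4 genes Sdha to Sdhd, and those starting with Cox4 to Cox8. This gave 79 genes. An ATAC-seq peak belonged to a member when it lay within 1000 bp of either end of the gene in a GRCm38.p6 gene table, which gives no strand and no exons. Of the 79 genes, 72 had at least 1 peak, and they held 97 of the 119751 deposited peaks, all of them tested. The rule uses no measured value, but the members were chosen with earlier results of these data known. Complex I subunits had 54 peaks (37 of 39 genes), complex I assembly factors 12 (8 of 8), complex II 4 (4 of 4), complex III 9 (8 of 8), complex IV 13 (11 of 12) and tissue-restricted or inducible paralogues 5 (4 of 8). The genes without a peak were Cox4i2, Cox7b2, Cox8b, Cox8c, Ndufb4b, Ndufb4c and Cox5a.

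Accessibility was measured in dendritic cells grown with GM-CSF (15 ng/mL) from bone marrow of female C57BL/6J mice aged 6 to 8 weeks. The 36 libraries form 18 groups of 2. One group is the unstimulated control (Ctrl). The others were treated for 6 h. Single ligands were LPS (L), depleted zymosan (Z), 3',3'-cGAMP (cG) and those labelled PAM (P), SeV (S) and HMW (H). The rest received 8 pairs of them (PL, PH, LH, PS, PcG, ScG, ZS, ZcG) or 3 triplets (PLH, PScG, ZScG), where the letters name the ligands combined. No genetic change is named for any group. The labels do not say that the libraries of a group came from separate animals or cultures, so p-values measure the spread between these libraries, which may be technical.

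Complex I oxidises NADH, complex II oxidises succinate, complex III passes the electrons on to cytochrome c, and complex IV hands them to oxygen. Most subunits are encoded in the nucleus, from housekeeping promoters at which sites for Nrf1, for the ETS factor Gabpa and for YY1 are known. Dendritic cells and macrophages activated by Toll-like receptor ligands are known to shift from respiration to glycolysis, and nitric oxide made by the inducible synthase Nos2 inhibits complex IV.

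The promoters that the results below turn on are printed first, as the 250 bases before the start site in the RefSeq promoter table (GRCm38.p6), 5′ to 3′ on the gene's strand. Capitals mark matches to short motifs, searched on both strands: GCATGCG (core of the Nrf1 motif), CCGGAAG (ETS), AAGATGG (YY1), TGACGTC (CRE, the cyclic AMP response element), CCAAT (NF-Y), GGGCGG (Sp1), GGGANTTTC (core of the NF-kappaB motif) and GAAANNGAA (core of the interferon response element). The palindromic Nrf1 core and CRE can match both strands at overlapping positions. Ndufa5, Cox7c and Ndufa4 are shown because their peaks were lower in at least 14 of the 17 stimulated groups, Ndufv3 and Ndufa11 because theirs were higher in at least 9, and Sdhb because its peak was called in none, all with the TMM scaling described below.
Ndufa5 chr6:24527527-24527776 (minus): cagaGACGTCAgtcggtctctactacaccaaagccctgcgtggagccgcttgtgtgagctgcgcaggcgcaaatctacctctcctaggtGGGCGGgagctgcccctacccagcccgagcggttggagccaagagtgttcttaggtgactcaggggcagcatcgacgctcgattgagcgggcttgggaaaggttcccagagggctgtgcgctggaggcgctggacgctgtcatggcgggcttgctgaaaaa
Cox7c chr13:86046796-86047045 (minus): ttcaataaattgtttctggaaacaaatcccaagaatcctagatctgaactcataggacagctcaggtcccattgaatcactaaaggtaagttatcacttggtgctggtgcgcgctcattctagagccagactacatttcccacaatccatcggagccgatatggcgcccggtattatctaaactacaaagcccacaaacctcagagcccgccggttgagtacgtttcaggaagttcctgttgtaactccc
Ndufa4 chr6:11907451-11907700 (minus): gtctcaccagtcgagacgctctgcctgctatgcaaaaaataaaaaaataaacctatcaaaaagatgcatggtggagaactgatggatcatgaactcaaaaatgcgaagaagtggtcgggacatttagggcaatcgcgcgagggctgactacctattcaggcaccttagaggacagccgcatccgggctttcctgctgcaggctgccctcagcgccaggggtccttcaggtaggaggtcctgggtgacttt
Ndufv3 chr17:31519865-31520114 (plus): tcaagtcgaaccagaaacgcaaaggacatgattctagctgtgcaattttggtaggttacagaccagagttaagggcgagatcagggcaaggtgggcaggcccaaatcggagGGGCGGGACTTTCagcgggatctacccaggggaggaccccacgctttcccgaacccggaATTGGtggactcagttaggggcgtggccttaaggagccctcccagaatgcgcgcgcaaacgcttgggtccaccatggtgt
Ndufa11 chr17:56717512-56717761 (plus): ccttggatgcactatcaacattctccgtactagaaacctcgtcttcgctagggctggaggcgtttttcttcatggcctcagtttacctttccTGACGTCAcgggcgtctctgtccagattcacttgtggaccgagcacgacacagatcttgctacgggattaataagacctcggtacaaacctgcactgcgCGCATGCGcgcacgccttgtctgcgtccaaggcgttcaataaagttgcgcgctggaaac
Sdhb chr4:140961021-140961270 (plus): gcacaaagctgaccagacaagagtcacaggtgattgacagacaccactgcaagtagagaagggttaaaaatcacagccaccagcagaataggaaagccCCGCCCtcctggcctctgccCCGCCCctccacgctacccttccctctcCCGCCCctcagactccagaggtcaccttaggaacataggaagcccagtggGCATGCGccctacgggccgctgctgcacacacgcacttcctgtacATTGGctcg
Counted from the start site, the Ndufa5 promoter holds a CRE match at -246 and an Sp1 match at -161. Ndufv3 has an NF-Y match at -80, and an Sp1 match at -139 that overlaps an NF-kappaB core match at -135. Ndufa11 has overlapping Nrf1 core matches at -59 and -58 and CRE matches at -158 and -157. Sdhb has an Nrf1 core match at -54, an NF-Y match at -9 and Sp1 matches at -152, -132 and -104. The printed Cox7c and Ndufa4 windows hold none of the 8 motifs. In the longer windows searched below, which run past the start site, Cox7c has a YY1 and an interferon response element core match. There Sdhb also has an ETS match, and Ndufa4 still has none of the motifs.

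Of the 79 member genes, 63 had an entry in the promoter table, each with 300 bases that run 50 past the start site. The Nrf1 core occurred in 14.3% of these windows, against 3.58% of all 32851 promoters in the table and 7.02% of the 11285 that had a deposited peak. The ETS motif occurred in 20.6% of member windows, 8.86% of all and 19.5% of those with a peak. The YY1 motif occurred in 14.3%, 6.34% and 7.20%, and it was in 0 of the 63 when only the 150 bases before the start were searched, so each of its matches lay at least partly outside that stretch. The CRE occurred in 9.52%, 3.21% and 5.88%. Sp1 matched 46.0% of member windows, 35.7% of all and 68.2% of those with a peak, and CCAAT matched 39.7%, 37.4% and 38.1%. The inflammatory motifs were rare: the NF-kappaB core in 3.17%, 1.11% and 1.02%, and the interferon response element core in 9.52%, 8.56% and 7.06%. A match is a run of letters and not a measured binding site.

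Libraries held 19097027 to 39977088 counts, of which 8181254 to 21985891 lay outside the mitochondrial genome and 13620 to 44546 in the member peaks. Values are in CPM, the counts of a peak relative to all counts of the library outside the mitochondrial genome, after TMM scaling. The mitochondrial share of counts averaged 58.3% to 63.0% in Ctrl, Z, ScG, ZcG and ZScG, and 44.4% to 54.5% in the other 13 groups. Since Ctrl is among the first 5, any comparison of those 13 groups with control sets a low against a high share, and the share and the ligands cannot be told apart there. Single libraries overlap between the sets: ZS replicate 1 stood at 58.1%, above ScG replicate 1 (57.3%) and ZScG replicate 1 (57.9%), and ZS replicate 2 at 51.0%. Peaks near Il6, Il1b, Tnf, Cxcl10 and 6 other activation genes summed to 354 CPM in Ctrl, the lowest of all groups, and to 1008 in PScG. Dendritic and myeloid markers had peaks at 10 of 10 genes, 241 CPM summed in Ctrl and up to 308 in ZS, macrophage markers at 5 of 5 (78.1 in ZScG to 123 in P), neutrophil markers at 2 of 5 (8.69 in ZScG to 21.1 in Ctrl), T cell markers at 2 of 6 (12.0 to 17.6), B cell markers at 2 of 4 (11.2 to 16.1), erythroid markers at 1 of 4 (9.98 to 16.2) and epithelial markers at 1 of 3 (0.760 to 3.34). The share of other cells in the cultures was not tested as a source of any difference below.

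Member peaks, whose intervals are the same in all libraries, were broader than most peaks. Their lengths and levels were not compared with those of other gene-end peaks. The median member peak was 1008 bp long against 450 bp over all peaks, and 71 of the 97 contained a gene end. Levels per kilobase of peak in control had a median of 13.4 CPM per kb for complex I subunits, 14.0 for its assembly factors, 19.6 for complex II, 17.1 for complex III and 13.1 for complex IV. The restricted paralogues were far lower, with a median of 2.91 CPM per kb. Ndufa4 (69.2 CPM per kb), Cox7c (67.8), Ndufb5 (50.6), Ndufv2 (47.5) and Ndufa5 (43.3) were the most open of all. Ndufa4 is named as a complex I subunit but is known to sit in complex IV, Cox7c is a small complex IV subunit, and Ndufb5 and Ndufv2 belong to the membrane arm and the NADH-oxidising module of complex I. Among the other groups, Ndufaf5 led the assembly factors (34.99 CPM per kb), Uqcrb and Uqcrc2 led complex III (27.8 and 26.7), and Sdha led complex II (24.7). The lowest were the second Ndufs7 peak in complex I (0.273 CPM per kb) and the first Cox7a2 peak in complex IV (2.40), neither of which lies near the gene's start in the promoter table. Peaks differ in length and in the neighbours they serve, since 46 of the 97 also lay within 1000 bp of an end of another protein-coding gene.

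**Figure D1:**
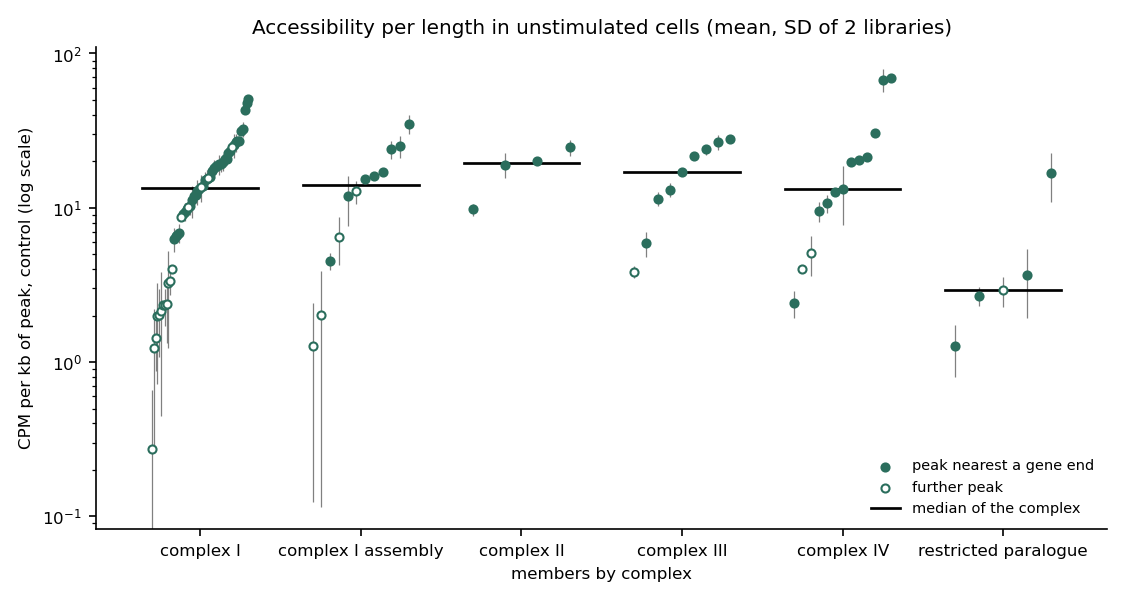
Level of each member peak in unstimulated cells, in CPM per kb of peak on a log axis (vertical), by complex (horizontal), with each point the mean and each bar the SD of the 2 control libraries, filled points for the peak nearest a gene end, open points for further peaks and lines for medians. The complexes of the chain overlap between about the same levels, Ndufa4 and Cox7c stand highest at 69.2 and 67.8 CPM per kb, and the restricted paralogues lie low with a median of 2.91.

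Summed over all members, accessibility moved little on the TMM scale, and it moved the other way when libraries were scaled by their totals. Summed over the 97 peaks, control held 1974 ± 18.7 CPM (mean ± SD, n = 2 here and for each group). The sum was lower with P (1722 ± 49.4), H (1736 ± 18.8), L (1806 ± 34.6) and S (1844 ± 19.98), and close to control with cG (1933 ± 10.1) and Z (1908 ± 45.9). Among pairs it was lowest in PH (1696 ± 14.5) and PL (1705 ± 44.1), followed by PcG (1733 ± 59.6), LH (1741 ± 13.6), PS (1802 ± 4.20), ZS (1900 ± 31.2), ScG (1968 ± 16.3) and ZcG (1993 ± 47.4). The triplets held 1698 ± 36.9 (PLH), 1776 ± 30.5 (PScG) and 1887 ± 12.8 (ZScG). As a plain share of counts outside the mitochondrial genome, members took 0.152% to 0.182% in the 10 libraries of the 5 groups with the high mitochondrial share, control among them, and 0.171% to 0.207% in the other 26. On the TMM scale every group with P had a lower sum than every group with Z, and 3 of the 4 groups with Z have the high mitochondrial share. Measured against all counts at gene ends, however, the member share stayed between 0.603% and 0.644% in every library.

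A peak was called when its adjusted p was under 0.05 in edgeR's quasi-likelihood test, with Benjamini-Hochberg adjustment over 119464 peaks, and all adjusted p values below come from it. In brackets after each member count stands the percentage of all tested peaks called in that direction. With single ligands, P gave 3 higher (11.1%) and 13 lower (9.45%) of the 97 members, L 11 higher (11.2%) and 13 lower (11.1%), H 3 higher (5.21%) and 14 lower (5.46%), and S 10 higher (14.1%) and 12 lower (13.8%). Likewise cG gave 12 higher (11.6%) and 9 lower (11.6%), and Z gave 0 higher (4.16%) and 2 lower (1.75%), which were Cox8a and Ndufv1. With P and H, higher calls took 3.09% of the members in each and lower calls 13.4% and 14.4%. Differences between the shares of the members and of other peaks were not tested, here and below. With Z, 18 members had an unadjusted p under 0.05, in either direction, and DESeq2's test called 2.

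Of the pairs, PL gave 4 higher (13.8%) and 18 lower (13.5%), PH 2 higher (13.6%) and 19 lower (12.8%), and LH 3 higher (11.3%) and 15 lower (10.5%). PS gave 10 higher (17.3%) and 14 lower (16.2%), PcG 8 higher (16.8%) and 16 lower (16.2%), and ScG 8 higher (14.4%) and 4 lower (13.3%). ZS gave 20 higher (14.4%) and 13 lower (14.0%), and ZcG 9 higher (11.4%) and 5 lower (10.2%). Of the triplets, PLH gave 6 higher (14.9%) and 20 lower (14.7%), PScG 15 higher (19.0%) and 18 lower (18.1%), and ZScG 16 higher (16.2%) and 15 lower (16.1%). Over the 17 comparisons this made 140 higher and 220 lower calls. They all use the same control libraries, so they are not 17 independent results.

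Other gene ends leaned the same way. Of the 17050 tested peaks within 1000 bp of an end of any protein-coding gene, 19.1% were lower and 5.40% higher with P, 25.0% and 6.50% with PH, 25.1% and 8.83% with PLH, and 16.4% lower and 15.96% higher with ZScG. The median log2 fold change of the members ran from -0.16 in PH to 0.08 in cG, that of gene-end peaks from -0.21 in PH to 0.04 in ZcG, and that of all peaks from -0.04 to 0.04. Of the members, 13.4% were lower with P, 19.6% with PH, 20.6% with PLH and 15.5% with ZScG.

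**Figure D2:**
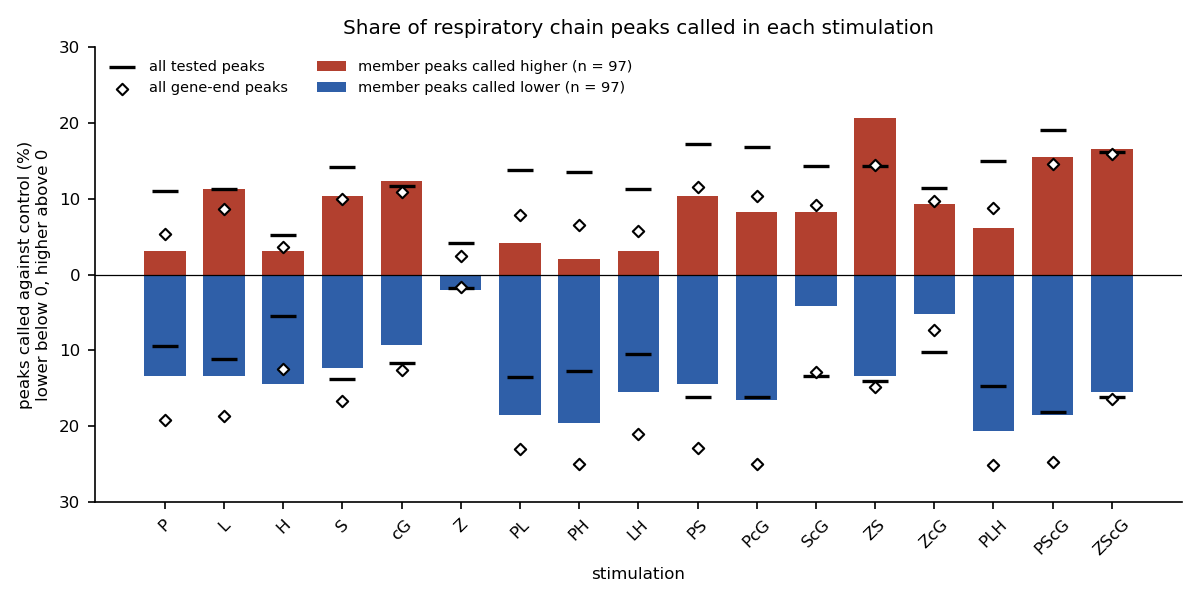
Percentage of peaks called (vertical axis) in each of the 17 stimulated groups against control (horizontal axis), higher above 0 and lower below it, for the 97 members, all gene-end peaks and all tested peaks. Lower calls of the members are most frequent in PLH (20 of 97) and PH (19), and the gene-end peaks lean the same way.

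The direction of the whole set depended on how libraries were scaled, while single members did not always. With TMM, 38.9% of the 360 calls were higher. With DESeq2's size factors it was 42.6% (153 higher, 206 lower), with loess offsets 55.9% (174 and 137), with TMM computed on gene-end peaks 57.1% (190 and 143), and with library totals alone 89.5% (385 and 45). Library totals moved the median of all peaks by up to 0.45 on the log2 scale and gene-end TMM by up to 0.21. Under all of TMM, library totals, gene-end TMM and loess, 16 members were called lower at least once and 25 higher at least once. One control library also mattered: without control replicate 1 there were 62 higher and 127 lower calls, and without control replicate 2 there were 133 and 198.

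**Figure D3:**
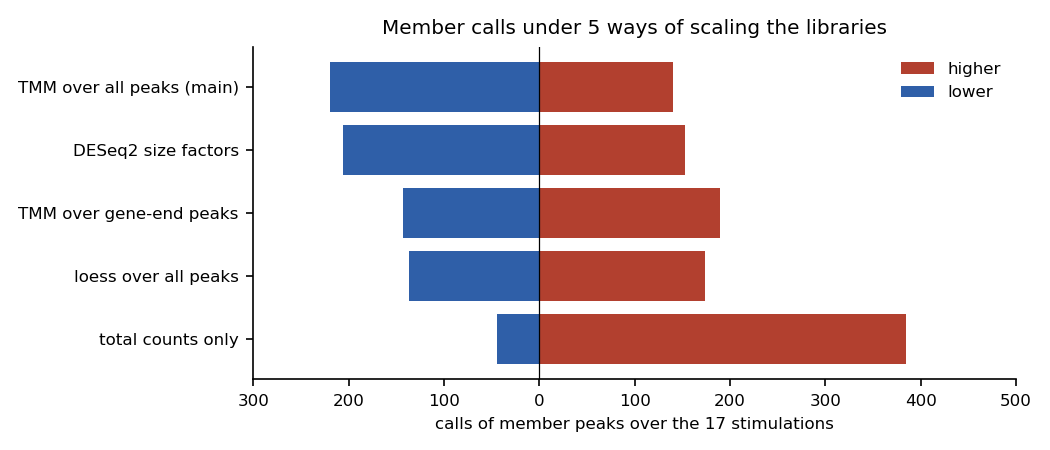
Number of member calls summed over the 17 comparisons with control (horizontal axis), higher to the right of 0 and lower to its left, by scaling method (vertical axis). The same counts give 140 higher and 220 lower calls with TMM, 190 and 143 with TMM on gene-end peaks, and 385 and 45 with library totals.

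Which members moved was far from even. Over the 17 comparisons 37 of the 97 peaks were never called, 27 were higher at least once, 34 were lower at least once, and Ndufv1 was both. Of all pairs of a peak and a comparison, 8.49% were called higher and 13.3% lower for the members. The shares were 9.16% and 17.6% for gene-end peaks, and 13.0% and 12.3% for all tested peaks. Whether calls are as uneven among other gene-end peaks was not tested, and the splits below by peak and by complex were made for the members only. The first peak of each gene, the one nearest a gene end, carried 68 higher and 184 lower calls over 72 peaks. The 25 further peaks, with a median length of 471 bp, carried 72 higher and 36 lower. Lower calls thus sat mostly on the peaks at gene ends, and higher calls were about as many on the small peaks further out. The 4 comparisons that stay among groups with the high mitochondrial share (Z, ScG, ZcG, ZScG) gave 33 higher and 26 lower calls on 36 peaks, and the other 13 gave 107 and 194 on 59 peaks. Of gene-end peaks, 1.61% (Z) to 16.4% (ZScG) were lower in the 4 and 12.5% (H) to 25.1% (PLH) in the 13. Higher calls took 2.40% (Z) to 15.96% (ZScG) of them in the 4 and 3.60% (H) to 14.6% (PScG) in the 13.

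**Figure D4:**
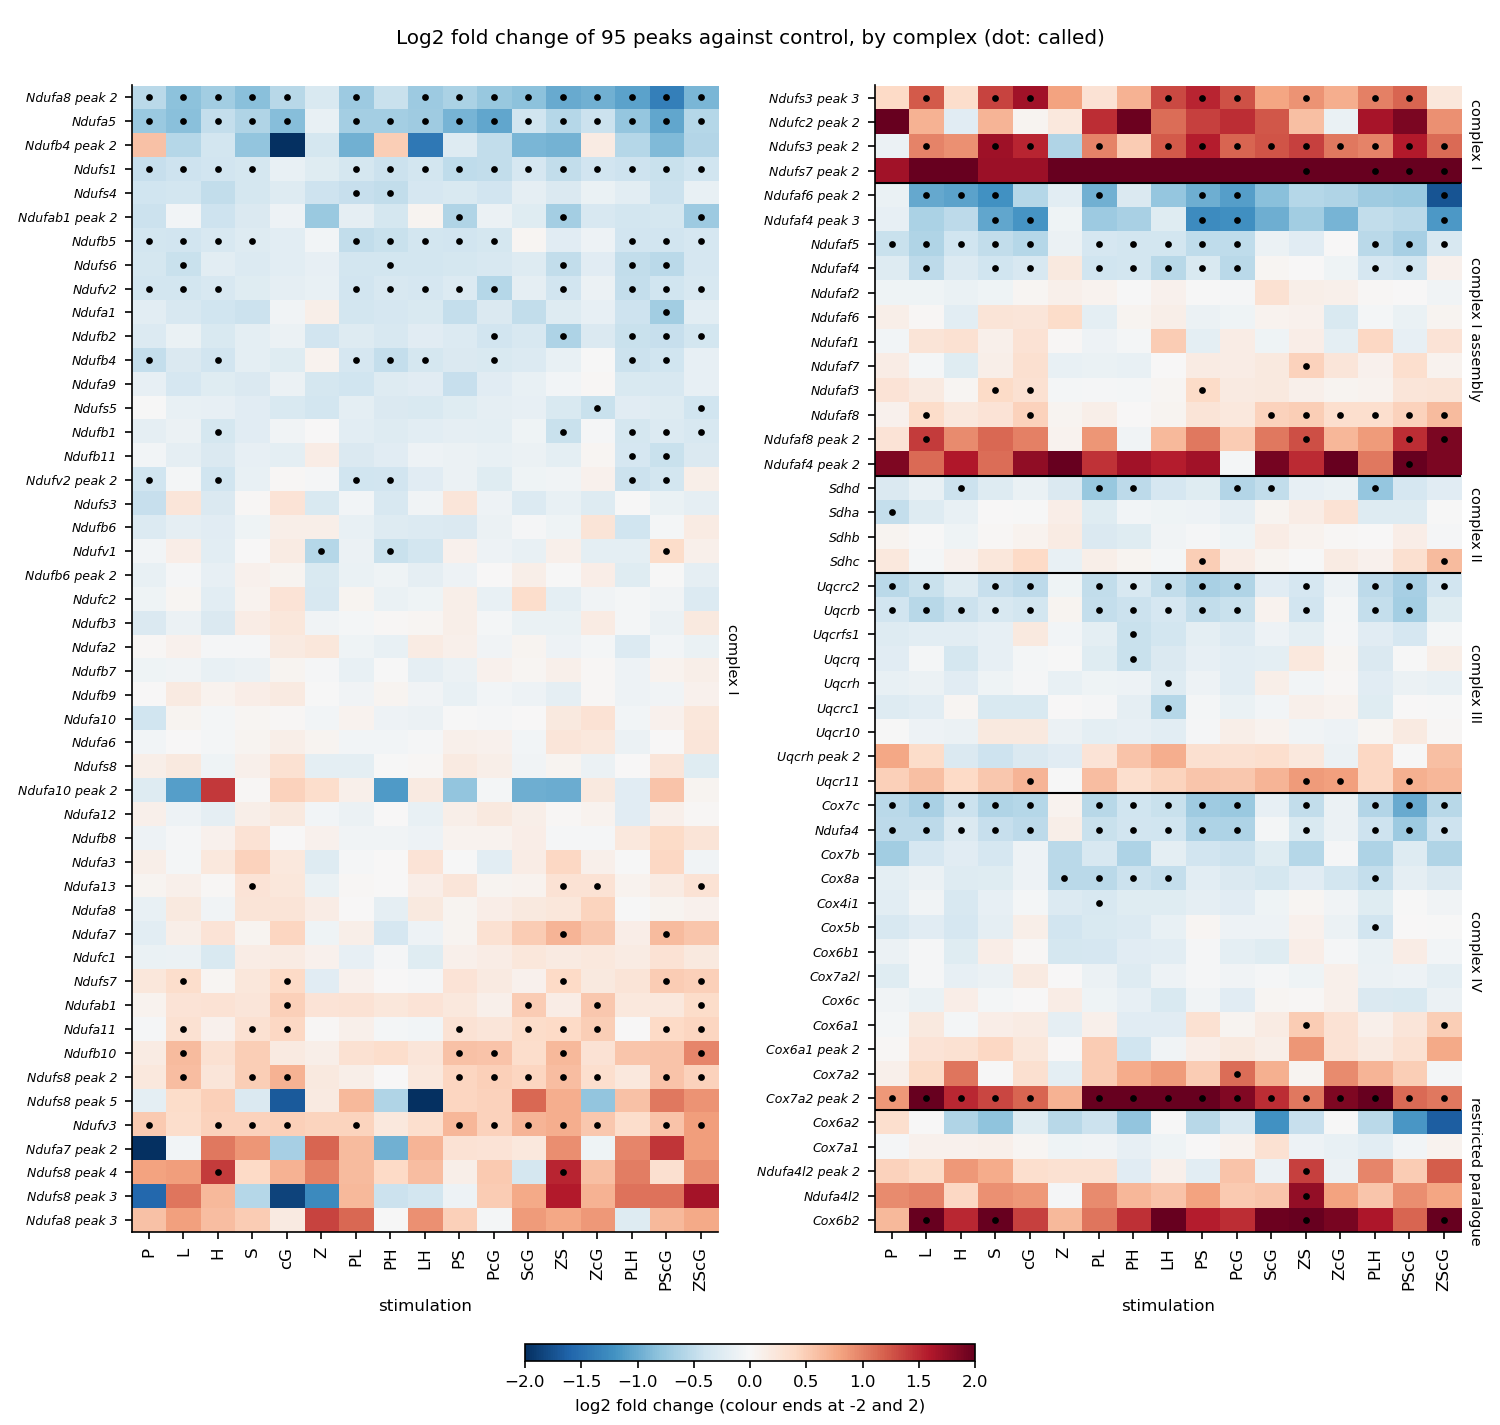
Log2 fold change against control (colour) of 95 of the 97 member peaks (rows, by complex) in the 17 stimulated groups (columns), with dots marking an adjusted p under 0.05. Ndufa5 is lower in 16 of 17 columns and the second Cox7a2 peak higher in 16, while most rows hold few dots.

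Complex I subunits held 92 higher and 113 lower calls with TMM, 126 and 69 with gene-end TMM, and 226 and 27 with library totals, so their balance turns with the scaling. Ndufa5, an accessory subunit of its peripheral arm, was the member most often lower (peak chr6:24526892-24528231, near a gene end of Asb15 as well). Its 2 control libraries stood at 56.8 and 59.2 CPM, against 27.1 and 29.1 in PScG, 29.7 and 27.0 in PcG and 30.1 and 34.8 in L. With Z it stood at 50.9 and 54.2, below control but not called (adjusted p = 0.536). Every other stimulated library, 32 in all, lay below both control libraries and below both Z libraries. The log2 fold change reached -1.04 (SE 0.114, adjusted p = 6.76e-15) in PScG, and the peak was called in 16 of 17 groups, also in 16 with gene-end TMM or loess and in 14 with library totals. Its calls include ScG, ZcG and ZScG, where the mitochondrial share was like that of control.

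The core subunit Ndufs1, the largest iron-sulfur protein of complex I, was lower in 15 groups (chr1:63175905-63177606, also near a gene end of Eef1b2). It stood at 54.6 and 52.3 CPM in control and 38.1 and 37.3 in PS, log2 fold change -0.50 (SE 0.108, adjusted p = 5.57e-05). The change is small, and with library totals 2 of the 15 calls were left and the fold changes with L and S lay just above 0 (0.01 each). Ndufv2, an iron-sulfur protein of the NADH-oxidising module (chr17:66100823-66102258), was lower in 12 groups, from 69.1 and 67.3 CPM in control to 51.0 and 40.5 in PcG, log2 fold change -0.57 (SE 0.101, adjusted p = 9.47e-07). Ndufb5 of the membrane arm (chr3:32736148-32737709, near Mrpl47) was lower in 12, from 80.2 and 77.9 to 58.5 and 53.6 in PL, log2 fold change -0.49 (SE 0.0969, adjusted p = 1.5e-05). With library totals Ndufv2 kept 0 and Ndufb5 1 of these calls, so these calls rest on the scaling. Ndufb4 was lower in 8 groups with TMM and in 0 with library totals or gene-end TMM.

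The largest fall in PScG was beside Ndufa8, an accessory subunit, at a peak that holds no gene end. The second Ndufa8 peak (chr2:36034937-36035988), 336 bp from an end of the gene, stood at 16.3 and 12.3 CPM in control and 5.66 and 5.34 in PScG, log2 fold change -1.37 (SE 0.215, adjusted p = 2.54e-08). It was called lower in 15 groups, in 14 with gene-end TMM and in 6 with library totals. Without control replicate 1 only 5 of its calls were left, and that library is the higher of the pair.

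Other complex I peaks were higher after stimulation. Ndufv3, an accessory subunit near the flavoprotein (chr17:31519500-31520804, near Wdr4), stood at 12.2 and 17.1 CPM in control and 27.7 and 24.7 in ZScG, log2 fold change 0.83 (SE 0.152, adjusted p = 2.5e-06). It was higher in 12 groups, and in 16 with library totals and 17 with gene-end TMM. The control libraries of Ndufv3 differ widely: without replicate 1, the lower, 3 calls were left. Ndufa11 of the membrane arm (chr17:56716326-56718280, near Vmac) was higher in 9 groups, 31.8 and 38.6 CPM in control against 46.7 and 52.4 in ZcG, log2 fold change 0.49 (SE 0.113, adjusted p = 0.000368), and in 0 without control replicate 1. Ndufb10, also of the membrane arm, was higher in 5 (5.46 and 5.60 CPM in control, 12.2 and 9.51 in ZScG, log2 fold change 0.98, SE 0.248, adjusted p = 0.00085), and Ndufs7, a core subunit that hands electrons to ubiquinone, in 5 (21.0 and 23.3 against 31.1 and 31.8 in PScG, log2 fold change 0.50, SE 0.134, adjusted p = 0.00128). Without control replicate 1 each kept 1 call. Ndufab1, the mitochondrial acyl carrier protein, was higher in 4 groups with TMM and in 13 with gene-end TMM. Ndufv1, which carries the flavin that takes electrons from NADH, was lower with Z (log2 fold change -0.56, SE 0.164, adjusted p = 0.0193) and PH (log2 fold change -0.45, SE 0.151, adjusted p = 0.0172) and higher with PScG (log2 fold change 0.37, SE 0.148, adjusted p = 0.0393). Without control replicate 1 Ndufv1 had 0 higher and 3 lower calls, without control replicate 2 it had 1 and 0, and with library totals 4 and 1. Its call with Z was lost under 5 of 15 alternatives.

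Further peaks beside genes of the complex I core were higher as well. The second Ndufs3 peak (chr2:90894218-90894756) went from 0.983 and 2.51 CPM to 5.76 and 5.84 with S, log2 fold change 1.70 (SE 0.345, adjusted p = 2.81e-05), higher in 13 groups. The third (chr2:90903422-90903983, near Kbtbd4) went from 2.19 and 2.32 to 6.60 and 7.88 with cG, log2 fold change 1.68 (SE 0.314, adjusted p = 6.73e-06), higher in 9. The first Ndufs3 peak, at the start site, was called in 0 groups (lowest adjusted p = 0.14). The second Ndufs8 peak (chr19:3906282-3908788, also near Tcirg1) stood at 23.8 and 26.8 CPM in control and 41.0 and 41.6 with cG, log2 fold change 0.70 (SE 0.122, adjusted p = 1.04e-06), higher in 10. Each of these 3 peaks was called higher in 9 or more groups under library totals, gene-end TMM and loess. Without control replicate 1 the second Ndufs3 peak kept 3 calls, the third 7 and the second Ndufs8 peak 6. Ndufs3 and Ndufs8 are core subunits of the arm that reduces ubiquinone, and which gene such a peak serves was not tested.

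**Figure D5:**
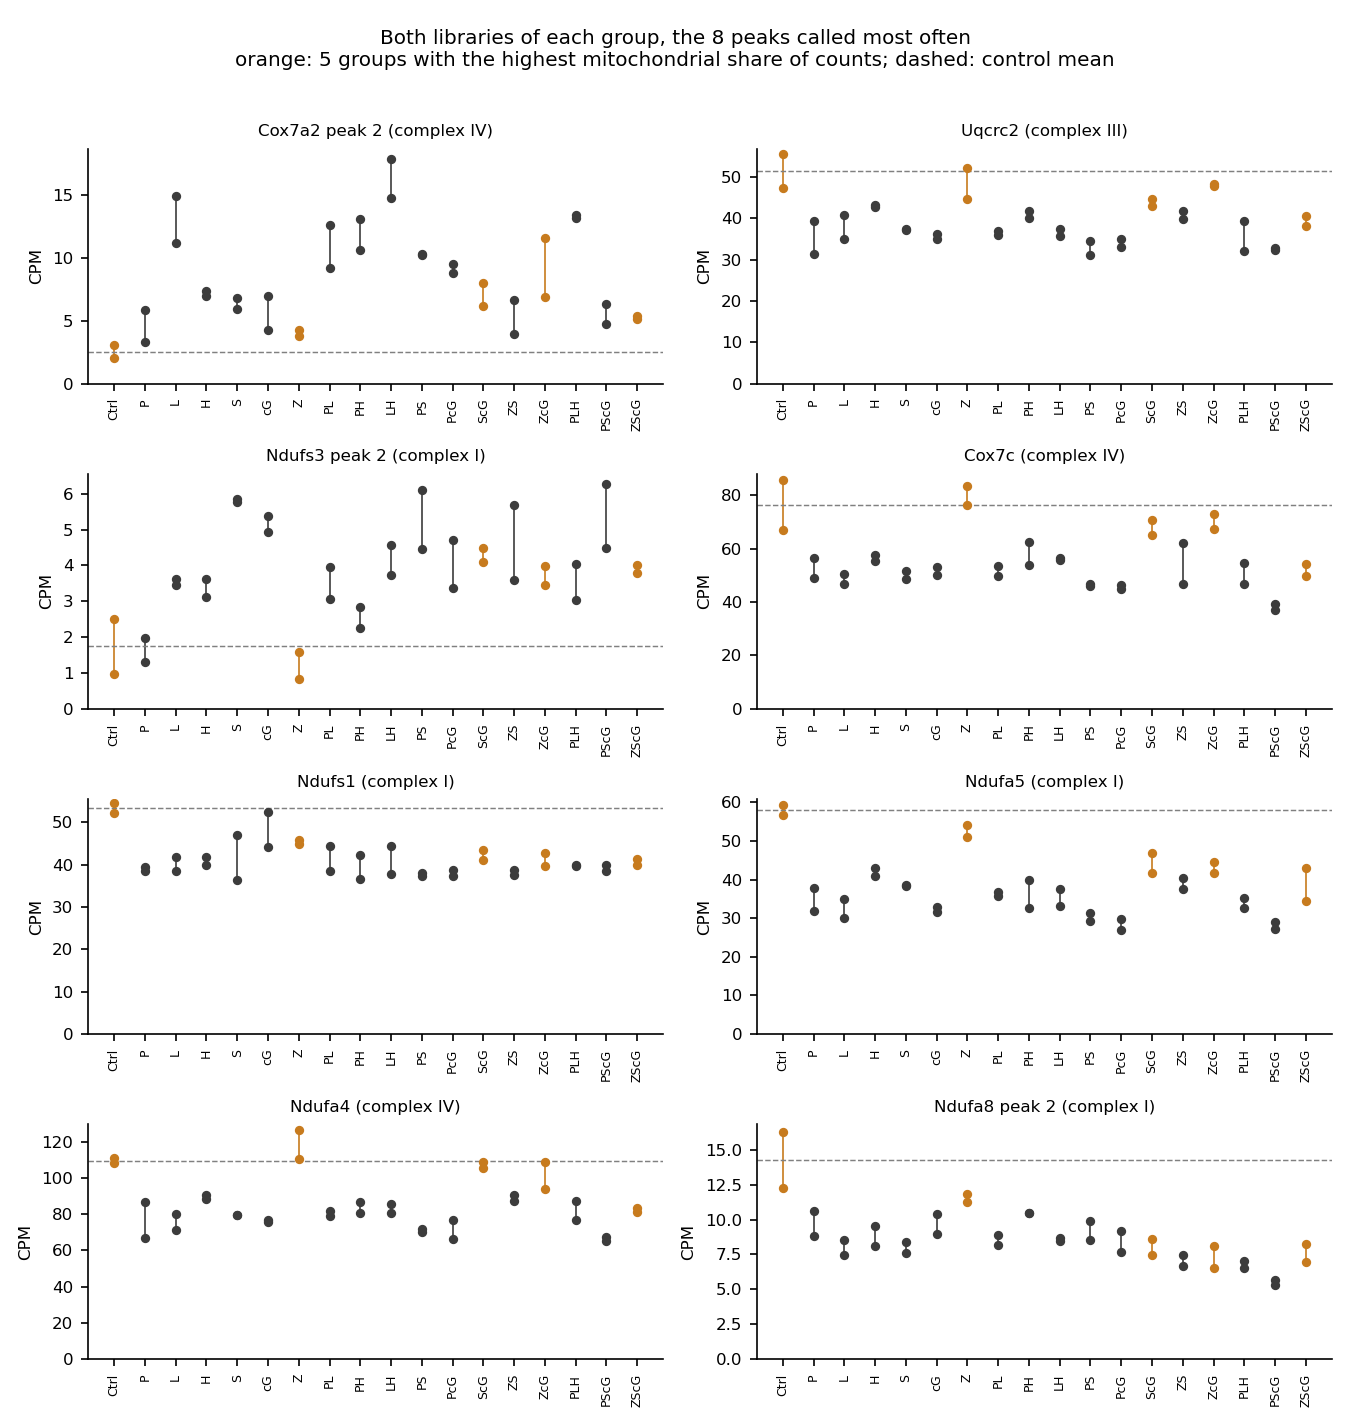
CPM in each of the 36 libraries (points, 2 per group; vertical axes) by group (horizontal axis) for the 8 member peaks called most often, with the control mean dashed and the 5 groups with the high mitochondrial share in orange. Ndufa5 stands at 56.8 and 59.2 CPM in control and lower in every stimulated group, least so in Z, where it was not called. The second Cox7a2 peak stands at 3.06 and 2.03 in control and highest in LH at 14.8 and 17.9.

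Complex I assembly factors, which build the enzyme and are not part of it, held 17 higher and 35 lower calls, against 27 and 25 with gene-end TMM and 58 and 4 with library totals. Ndufaf5, which modifies Ndufs7, was lower in 13 groups (chr2:140169869-140171430, shared with Esf1), 60.3 and 49.0 CPM in control against 36.1 and 33.2 in PScG, log2 fold change -0.66 (SE 0.112, adjusted p = 2.71e-07). Its partner Ndufaf8 (chr11:120098273-120099814, near Tepsin) was higher in 8, 24.6 and 25.1 CPM against 36.3 and 40.5 in ZScG, log2 fold change 0.63 (SE 0.128, adjusted p = 2.74e-05). The peaks of these partners thus moved in opposite directions, and neither was called in the other direction under any of the 5 scalings. Ndufaf4, which acts early in assembly, was lower in 10 (chr4:24896791-24898657), 49.1 and 40.6 against 28.8 and 32.0 in LH, log2 fold change -0.56 (SE 0.117, adjusted p = 7.34e-05). With library totals Ndufaf5 kept 1 call and Ndufaf4 0, while Ndufaf8 was higher in 15. Without control replicate 1 Ndufaf5 kept 6 calls, Ndufaf4 2 and Ndufaf8 5. The second Ndufaf6 peak was lower in 7, most in ZScG (log2 fold change -1.73, SE 0.387, adjusted p = 0.000141), and in 1 without control replicate 1.

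Complex II had 1 peak for each of its 4 genes, with 2 higher and 7 lower calls, against 16 and 3 with library totals. Sdhd, a membrane anchor (chr9:50603350-50604611, near Nkapd1 and Timm8b), was lower in 6 groups. It stood at 25.3 and 25.7 CPM in control, 13.7 and 16.2 in PLH and 15.3 and 15.0 in PL. These are log2 fold change -0.77 (SE 0.146, adjusted p = 5.9e-06) in PLH and log2 fold change -0.75 (SE 0.149, adjusted p = 1.78e-05) in PL. It kept 3 calls with library totals and 4 with gene-end TMM. Sdha, the flavoprotein that oxidises succinate (chr13:74349756-74350815, near Ccdc127), was lower only with P, 28.4 and 24.0 CPM in control against 19.8 and 18.0, log2 fold change -0.47 (SE 0.135, adjusted p = 0.00534). With library totals Sdha was higher in 1 group instead and lower in 0. Sdhc, the other anchor, was higher in ZScG (8.74 and 9.94 CPM in control, 14.5 and 14.6 in ZScG, log2 fold change 0.64, SE 0.201, adjusted p = 0.00849) and in PS (log2 fold change 0.49, SE 0.189, adjusted p = 0.0337), and in 0 without control replicate 1. Sdhb, the iron-sulfur subunit (chr4:140960890-140962197), was called in 0 groups with TMM, gene-end TMM or loess, but was higher in 8 with library totals and lower in 1 without control replicate 1. Its libraries ran from 16.7 to 30.5 CPM (lowest adjusted p = 0.12), with control at 21.6 and 28.2, well inside that range.

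Complex III held 4 higher and 30 lower calls, against 9 and 18 with gene-end TMM and 29 and 2 with library totals, which reverses the balance. With TMM, 26 of the lower ones were on Uqcrc2 and Uqcrb. Uqcrc2, a core protein (chr7:120634444-120636374), was lower in 13 groups, 55.7 and 47.3 CPM in control against 32.3 and 32.8 in PScG, log2 fold change -0.66 (SE 0.113, adjusted p = 3.36e-07). Uqcrb, a small subunit (chr13:66904370-66905631, near Mterf3 and Gm10767), was lower in 13, 35.8 and 34.2 against 18.4 and 24.9 in PScG, log2 fold change -0.68 (SE 0.130, adjusted p = 4.09e-06). With gene-end TMM they kept 12 and 6 calls, with library totals 2 and 0, and with library totals Uqcrc2 in PH lay at 0.01. Uqcrc1, the other core protein, was lower only in LH (log2 fold change -0.57, SE 0.181, adjusted p = 0.0123), and Uqcrfs1, the Rieske iron-sulfur protein, only in PH (log2 fold change -0.45, SE 0.141, adjusted p = 0.00997). Neither was called lower with library totals, with gene-end TMM or without control replicate 2, and with library totals Uqcrfs1 was higher in 1 group. Uqcr11, a small subunit (chr10:80406441-80407167), was the only complex III member with a higher call with TMM, 3.71 and 4.82 CPM in control against 7.20 and 8.20 in ZS, log2 fold change 0.85 (SE 0.271, adjusted p = 0.011), higher in 4 groups, and in 0 without control replicate 1.

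Complex IV held 19 higher and 35 lower calls, against 19 and 27 with gene-end TMM and 36 and 9 with library totals. With TMM, 28 of the lower ones were on its most open members, Cox7c and Ndufa4. Cox7c (chr13:86046142-86047268) stood at 85.7 and 67.1 CPM in control, 76.3 and 83.5 in Z, 46.6 and 50.4 in L and 39.1 and 37.0 in PScG. Its log2 fold change reached -1.004 (SE 0.105, adjusted p = 5.57e-16) in PScG and it was lower in 14 groups. It was not called in Z, ScG or ZcG, 3 of the 4 groups that share control's high mitochondrial share, and was called in the fourth, ZScG. Cox7c was lower in 13 groups with gene-end TMM, 11 with loess, 5 with library totals and 10 without control replicate 1. Ndufa4 (chr6:11906764-11908347, near Phf14) stood at 111 and 108 CPM in control, 111 and 127 in Z, 109 and 105 in ScG and 65.3 and 67.4 in PScG. It was lower in 14 groups, most in PScG (log2 fold change -0.72, SE 0.0935, adjusted p = 2.12e-11), in 11 with gene-end TMM and in 2 with library totals. Like Cox7c, it was called in 1 of the 4 groups with the high share. Cox8a, a small subunit, was lower in 5, with log2 fold change -0.54 (SE 0.144, adjusted p = 0.00191) in PL and log2 fold change -0.53 (SE 0.150, adjusted p = 0.0142) in Z, and in 2 with library totals. The call of Cox8a with Z was lost under 5 of 15 alternatives.

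The peak that rose most often in the whole chain was the second Cox7a2 peak (chr9:79772115-79772616), 693 bp from a gene end. It stood at 3.06 and 2.03 CPM in control, 11.2 and 14.9 in L, 13.2 and 13.4 in PLH and 14.8 and 17.9 in LH, against 5.95 and 6.83 in S and 3.81 and 4.30 in Z. Every library of the groups with L lay above every library of the other single ligands. Its log2 fold change reached 2.69 (SE 0.261, adjusted p = 1.84e-17) in LH, and it was higher in 16 of 17 groups with each scaling, all but Z (adjusted p = 0.216), and in 11 without control replicate 2. Cox7a2 encodes the broadly expressed form of a small complex IV subunit. Its start site in the promoter table lies elsewhere, in a peak outside the 1000 bp window (chr9:79759304-79760519) that was lower in 12 groups. That peak stood at 46.8 and 52.8 CPM in control and 32.3 and 28.3 in PLH (-0.72 on the log2 scale, SE 0.113, adjusted p = 5.3e-08). With TMM, the distal peak therefore rose while the start-site peak of Cox7a2 fell. The start-site peaks of Cox7a2 and Cox5a were read with TMM only, so how far their calls rest on the scaling was not tested. Whether the distal peak serves Cox7a2 was not tested either. Cox5a was left without a member peak in the same way, and the peak at its start (chr9:57520743-57522477) was higher in 5 groups, most with cG at 27.5 and 27.9 CPM against 22.9 and 17.4 in control (0.46, SE 0.139, adjusted p = 0.00751).

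The paralogues that are restricted to certain tissues or induced by low oxygen held 6 higher and 0 lower calls, and 20 and 0 with library totals. Cox7a1, the muscle form, was called in 0 groups (higher in 3 with library totals and in 1 without control replicate 1) and ran from 9.74 to 16.6 CPM, with control at 16.2 and 9.74. Cox6a2, the heart and muscle form, was called in 0 groups, with control at 0.765 and 1.54. Ndufa4l2, a hypoxia-induced relative of Ndufa4, was called higher in ZS, 1.42 and 1.16 CPM in control against 4.19 and 4.52, log2 fold change 1.76 (SE 0.434, adjusted p = 0.00075). It was called in 1 group with TMM and in 8 with library totals. Its second peak was higher in ZS too (log2 fold change 1.37, SE 0.493, adjusted p = 0.0262), and in 0 groups without either control library. Cox6b2, the testis form, was called higher in 4 groups on 3 and 2 counts in the control libraries, too few for a fold change, and in 1 without control replicate 1. The second Ndufs7 peak likewise rested on 1 and 0 control counts.

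Adding a second ligand to a first gave 87 member calls over 16 comparisons, 22 of them for ZS against Z. In brackets stands the percentage of all tested peaks called in either direction. The 97 members gave 3 calls for PL against P (8.46%), 2 for PL against L (1.13%), 2 for PH against P (2.66%), 2 for PH against H (7.55%) and 4 for LH against H (3.78%). For LH against L there were 0 calls (0.0645%), with 13 members at an unadjusted p under 0.05 and 0 called by DESeq2. With S or cG added to P there were 10 (PS against P, 18.1%) and 5 (PcG against P, 14.7%), and with P added to S or cG 0 (PS against S, 2.93%; 5 at an unadjusted p under 0.05, 0 by DESeq2) and 6 (PcG against cG, 9.11%). ScG gave 3 against S (0.579%) and 10 against cG (4.94%), ZS 22 against Z (15.2%) and 2 against S (2.53%), and ZcG 9 against Z (9.07%) and 7 against cG (2.87%). ScG differs from S and cG, and ZcG from cG, in its mitochondrial share too, as ZS does from Z, so those members' calls and that share cannot be told apart. Of the 87 calls 59 were higher and 28 lower with TMM, and 64 and 90 with library totals.

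Among single members, H on top of P raised the second Cox7a2 peak by 1.37 on the log2 scale (adjusted p = 5.32e-06), and L on top of H raised it by 1.18 (adjusted p = 2.2e-05). S on top of Z lowered Cox7c by a log2 fold change of -0.56 (adjusted p = 1.68e-05). S on top of cG gave Ndufa4 a log2 fold change of 0.49 (adjusted p = 8.64e-05).

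Departure from additivity on the log2 scale was tested for each pair as AB - A - B + control. The members gave 9 calls for PL (6.75% of all peaks), 2 for PH (1.55%), 7 for LH (4.88%), 0 for PS (4.59%; 17 at an unadjusted p under 0.05, 0 by DESeq2), 3 for PcG (3.27%), 16 for ScG (14.4%), 0 for ZS (3.43%; 15 and 0) and 3 for ZcG (2.49%). Of these 40 calls 24 were above additivity and 16 below with TMM, 21 and 22 with gene-end TMM, and 1 and 109 with library totals, so the direction of the set rests on the scaling. In the pairs with the most member calls, 8.74% (PL), 7.51% (LH) and 17.3% (ScG) of gene-end peaks were called, beside 9.28%, 7.22% and 16.5% of members. The lowest p values were at complex IV in ScG, where Ndufa4 departed by 0.95 (SE 0.130, adjusted p = 1.56e-09) and Cox7c by 1.00 (adjusted p = 1.16e-08). For Ndufa4 the libraries read 79.6 and 79.3 CPM with S, 75.6 and 76.8 with cG, 109 and 105 with both and 111 and 108 with neither. S and cG alone were each lower than control, and the pair was at control's level. Control and ScG have the high mitochondrial share and S and cG the low one, and with library totals ScG gave 0 calls above additivity and 54 below, so the calls of Ndufa4 and Cox7c were lost. In PL, Ndufa5 departed by 0.89 (adjusted p = 1.18e-05), with 37.9 and 31.9 CPM in P, 30.1 and 34.8 in L and 35.7 and 36.9 in PL, so that it was no lower with both ligands than with 1.

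The departure of each triplet from its pairs and singles gave 3 member calls for PLH (0.783%), 5 for PScG (2.0%) and 4 for ZScG (1.89%). Against PL, PH and LH, PLH gave 0 (0.000837%), 0 (0.248%) and 0 (0.546%) calls, with 3, 7 and 10 members at an unadjusted p under 0.05 and 0, 0 and 1 called by DESeq2. PScG gave 1 against PS (0.602%), 0 against PcG (0.412%; 11 unadjusted, 0 by DESeq2) and 10 against ScG (4.53%). ZScG gave 0 against ZS (0.0586%; 6 unadjusted, 0 by DESeq2), 2 against ZcG (2.79%) and 3 against ScG (0.772%). The 12 departures were 1 above and 11 below additivity with TMM, 2 and 10 with gene-end TMM, and 29 and 0 with library totals. The 16 calls against pairs were 3 higher and 13 lower, and 10 and 6 with library totals. Adding the last ligand thus gave the members few calls, except for P on top of ScG (10.3% of members, beside 9.52% of gene-end peaks). There Cox7c was lower (-0.84 on the log2 scale, SE 0.106, adjusted p = 6.73e-10) and so was Ndufa4 (-0.69, adjusted p = 8.42e-09). The 2 groups again differ in mitochondrial share.

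Genes that serve the chain without carrying a member symbol were read from lists. Over the 17 comparisons, gene-end peaks as a whole were called higher in 9.16% and lower in 17.6% of all pairs of a peak and a comparison, and the members in 8.49% and 13.3%. The 28 peaks of ATP synthase genes, the enzyme that uses the proton gradient, held 72 higher and 70 lower calls (15.1% and 14.7%). They include a further Atp5a1 peak higher in 11 groups and the Atp5e peak lower in 16. The 9 peaks of further complex I assembly genes held 0 higher and 68 lower (44.4%), led by Tmem186 (lower in 16, -0.85 in PLH), Tmem126b (15, -0.82 in PLH) and Acad9 (13, -0.80 in PL). The 36 peaks of genes that assemble complexes II, III and IV held 18 higher and 118 lower (2.94% and 19.3%), with the complex IV assembly gene Pet117 lower in 17 of 17 groups (-0.83 in PcG). The 18 peaks of ubiquinone synthesis and electron carrier genes held 36 and 61 (11.8% and 19.9%), with the ubiquinone methyltransferase Coq3 lower in 16 (-1.12 in PLH). Further peaks of Coq7 were higher in 16 and 10, while the Coq7 peak nearest a gene end was lower in 8. The 17 peaks of regulators held 18 and 85 (6.23% and 29.4%), with the mitochondrial DNA-binding protein gene Ssbp1 lower in 16 (-0.81 in ZScG) and Tfam, which packages mitochondrial DNA, in 7. Other regulators rose, with peaks of Esrra higher in 7 and 3 groups and Pprc1 in 5. The peak that Gabpa, the ETS factor, shares with the ATP synthase gene Atp5j was lower in 15 (-0.69 in PScG). With library totals the fold change lay above 0 for 13 of the 70, 5 of the 68, 22 of the 118, 12 of the 61 and 8 of the 85 lower calls of these lists, in that order. These are changes of sign, a weaker measure than the loss of calls given for the members. How many list calls are kept with library totals was not tested. The comparisons share their control libraries, and the shares were not tested against each other.

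Genes that modulate the chain held 59 higher and 47 lower calls over 16 tested peaks (21.7% and 17.3%). The paralogue AA467197, which can take the place of Ndufa4 in complex IV, was higher in 13 groups (chr2:122637556-122638454), at 7.32 and 7.53 CPM in control and 14.6 and 13.5 with S (log2 fold change 0.92, SE 0.193, adjusted p = 5.6e-05). Ndufa4 itself was lower in 14. All 13 higher calls of AA467197 kept their sign with library totals, as did all 59 higher calls of this list. That scaling mostly raises fold changes, so a kept sign of a higher call says little. Peaks of Nos2 were higher in up to 16 groups, with a log2 fold change of 3.63 in PL (SE 0.231, adjusted p = 1.91e-32), and those of the mitophagy gene Bnip3 and the oxygen sensor Egln3 were lower in 15 and 14 (-0.84 in PScG and -0.88 in PS).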

How the data were processed

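The assay was ATAC-seq on 36 libraries of mouse bone marrow-derived dendritic cells in 18 groups of 2, which were taken from the sample titles. The authors deposited raw read counts per peak and library, whole numbers with no normalization, for 119751 peaks common to all libraries, with a list of peak positions. The submitters' processing notes name Bowtie2 2.2.9, MACS2 (listed with version 1.4), bedtools, featureCounts and mm10, with no role or order. The handling of duplicates, the shift of read ends for the transposase and whether peaks were called on pooled libraries are not given in the sources used here. Amplified reads carry no molecular identifiers, so replicates and not counts set the errors. ATAC-seq fragments carry no strand of a gene, so neighbouring genes that share a peak cannot be told apart.

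The peak spanning the mitochondrial genome (44.1% to 63.1% of counts) was left out of library sizes and tests. The filterByExpr rule with a minimum count of 10 dropped 286 peaks and left 119464 to test. Counts were scaled by TMM and fitted with edgeR 4.0.16 in R 4.3.3 (glmQLFit with trended dispersions and robust estimation, glmQLFTest) in 1 model of all 36 libraries with 1 coefficient per group and 18 residual degrees of freedom. Benjamini-Hochberg adjustment ran over all tested peaks, separately for 53 contrasts: 17 with control, 16 of a pair with a single ligand, 8 pair interactions, 3 triplet interactions and 9 of a triplet with a pair. A peak with an adjusted p under 0.05 was called. The fit was tested on simulated data. Log2 fold changes are the fitted ones, and CPM values use the same scaled library sizes. Every count column carries the title of its sample.

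Peaks of a gene are numbered by distance from its ends. Named members were, per comparison with control, the 3 highest and the 3 lowest log2 fold changes among called peaks with a mean of at least 1 CPM and both libraries beyond both control libraries, the 8 peaks called most often, the 2 most and the 1 least open per complex, all paralogues with a peak, the 2 lowest p per other family, and all Sdh genes, of which those needed are printed. The 2 peaks of 1 member gene are counted but not reported here. Other members and list genes were named after their values were seen. The members and lists were chosen with earlier results of these data known. Alternatives covered scaling (DESeq2 1.42.0 size factors, library totals, TMM on gene-end peaks, loess), DESeq2's test, filter, mitochondrial peak, depth, dispersion, the groups fitted, the replicate block, each library left out, and the membership rule.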

Additional observations from a re-analysis of the deposited data

Results flagged for a closer look

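With TMM, member peaks departed from additivity on the log2 scale in 9 of 11 interaction tests of edgeR's quasi-likelihood fit. In a pair test this is a fitted effect of a ligand that differed with the other ligand present. In a triplet test it is a departure of a pair that differed with the third ligand present. By pair, 9 member peaks (9.28% of the 97) were called for PL beside 6.75% of all tested peaks, 2 (2.06%) for PH beside 1.55%, 7 (7.22%) for LH beside 4.88%, 3 (3.09%) for PcG beside 3.27%, 16 (16.5%) for ScG beside 14.4% and 3 (3.09%) for ZcG beside 2.49%. By triplet, 3 (3.09%) were called for PLH beside 0.783%, 5 (5.15%) for PScG beside 2.0% and 4 (4.12%) for ZScG beside 1.89%. Gene-end peaks were nearer to the members in most of these tests. Of them, 8.74% were called for PL, 1.69% for PH, 7.51% for LH, 2.82% for PcG, 17.3% for ScG and 3.13% for ZcG. For the triplets it was 1.28% (PLH), 2.86% (PScG) and 3.43% (ZScG). The leading members were Ndufa4 (0.95 on the log2 scale) and Cox7c (1.00) for ScG, Ndufa5 (0.89) for PL, Cox7c (-1.09, adjusted p = 0.000213) for PScG and the assembly factor gene Ndufaf5 (-1.15, adjusted p = 0.000424) for ZScG. With library totals the pairs gave 1 call above additivity and 109 below, and the triplets 29 above and 0 below, so that the calls of Ndufa4 and Cox7c for ScG, of Cox7c for PScG and of Ndufaf5 for ZScG were lost. Control has a high mitochondrial share of counts and enters each of these tests beside groups with a low share, and the part of that share in the departures was not tested.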

How the results depend on the processing

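Counts of called members moved by more than 1.5 times under these settings. With library totals they were 39 for L, 10 for H, 39 for S, 44 for cG, 12 for PH and 41 for PS against control, 154 over the second-ligand comparisons, 110 summed over interactions of pairs and 29 over those of triplets. With TMM on gene-end peaks they were 9 for H, 14 for PL and 7 for PH. With loess offsets they were 9 for H and 9 for PH. With only the 2 groups compared they were 11 for H and 1 for Z. After thinning every library to 8181254 counts they were 11 for H and 10 for triplets against pairs. Limited to peaks near a start site, where fewer peaks enter, they were 10 for P, 15 for L, 14 for S, 13 for PL, 20 for ZS, 15 for PS, 15 for PcG, 6 for ScG, 9 for ZcG and 56 over second ligands. Limited to peaks that contain a gene end, they were 57 over second ligands. Without the 46 peaks near another gene's end, they were 6 for P, 11 for L, 7 for H, 8 for S, 10 for cG, 4 for ScG, 11 for PL, 12 for PLH, 10 for PH, 15 for PScG, 10 for LH, 17 for ZScG, 11 for PS, 6 for ZcG, 15 for ZS, 13 for PcG, 41 over second ligands, 13 over pair interactions, 4 over triplet interactions and 8 for triplets against pairs. Apart from the smaller sets of peaks, the cause of these shifts was not tested.

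Leaving out 1 library at a time, the fit pooled the spread, so that a lone library was assumed to vary like the other groups. Calls ranged over 8 to 16 for P, 11 to 22 for L, 4 to 13 for H, 9 to 22 for S, 9 to 19 for cG, 0 to 1 for Z, 8 to 16 for ScG, 13 to 22 for PL, 18 to 23 for PLH, 12 to 19 for PH, 23 to 31 for PScG, 11 to 18 for LH, 15 to 26 for ZScG, 14 to 24 for PS, 5 to 14 for ZcG, 15 to 24 for PcG and 11 to 26 for ZS. They ranged over 70 to 86 for second ligands, 24 to 50 for pair interactions, 6 to 14 for triplet interactions and 8 to 16 for triplets against pairs. Control replicate 1 gave the lowest value in 15 of the 17 comparisons with control, the exceptions being P (without P replicate 2) and Z (without Z replicate 1).

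Of 165 named pairs of a peak and a stimulation, 56 kept their call under every alternative, 109 lost it under at least 1, and 3 changed sign, all with library totals: Ndufs1 with L (0.0131) and with S (0.0088), and Uqcrc2 in PH (0.0077). The replicate block gave 361 calls over the 17 comparisons (141 higher, 220 lower) and changed no count by over 1.5 times. Same-numbered libraries did not deviate together over all tested peaks (r from -0.040 to 0.030 over 153 pairs of groups), so no pairing by number was seen. Many of those peaks hold few counts, so this cannot tell whether same-numbered libraries were prepared together. Peaks with few counts, such as those of Cox6b2 and the second Ndufs7 peak, limit what fold changes can be read.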

Other observations

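Base composition and motif content of the promoters were set beside the calls after these had been seen, as a description. Over the 58 member promoters that lie in a member peak, the correlation of GC content with the log2 fold change against control had a median of -0.01 over the 17 stimulations, against -0.04 over 8497 promoters in tested peaks, and it was highest for Z (0.27 over the 58). The promoters share the same libraries. Median GC was 61.0% in the 13 promoters whose peak was lower in 5 or more groups, 57.3% in the 5 that were higher in 5 or more, and 56.8% in the 22 that were never called. The ETS motif occurred in 2 of those 13, 1 of those 5 and 7 of those 22, the Nrf1 core in 2, 1 and 3, and the CRE in 3, 1 and 1.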
